A study of Homo sapiens with 8 samples.

Results

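The genes described here are the integrins, collagens and laminins together with fibronectin (FN1), the surface receptors and matrix proteins of cell adhesion, in human embryonic carcinoma cells depleted of TET1, TET2 or TET3. They were chosen by a rule on gene symbols, with earlier results of these data known. A transcript cluster, the group of probes that reads a transcript on this array, was taken where its annotation held exactly 1 symbol and that symbol named an integrin alpha or beta chain, a collagen chain or a laminin chain, and FN1 was added. This gave 84 clusters of 82 genes out of 18417 genes measured. They comprised 24 integrin subunits, 4 genes that share the integrin prefix but encode no subunit, FN1, 10 laminin chains and 43 collagen chains. COL11A2 was the only member with several clusters, and the brightest of its 3 was used. ITGA1, LAMA3 and COL17A1 were not analysed here.

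NCCIT is a pluripotent cell line derived from a human germ cell tumour. The cells were transfected with pools of siRNA against TET1 (siTET1), TET2 (siTET2) or TET3 (siTET3), or with a non-targeting siRNA (siNTC), and each of the 4 groups was measured on 2 expression arrays (Affymetrix Human Gene 1.0 ST). All groups, siNTC included, shared the line, the medium and the transfection procedure. The depletions were transient and partial. The targeted transcript was at 62.3% of its siNTC level in siTET1 (TET1), 54.4% in siTET2 (TET2) and 47.4% in siTET3 (TET3). TET1 was at 81.4% of siNTC in siTET2, and TET1 at 134% and TET2 at 72.4% in siTET3. On these arrays, neither siTET2 nor siTET3 was thus a change of its target alone. With quantitative RT-PCR, another method, the paper reported stronger depletion of each target and little effect on the other TETs. In siTET1, TET2 was at 87.9% and TET3 at 79.1% of siNTC. Neither passed the test described below, though the siTET1 arrays did not overlap siNTC. The labels do not state that the 2 arrays of a group came from separate cultures, so the p-values cover the spread among arrays, which may be technical, and the number of arrays limits the precision. Every comparison with siNTC shares the same 2 siNTC arrays.

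Integrins are receptors made of an alpha and a beta chain, and the combination of chains sets which matrix protein is bound. Alpha 5 with beta 1 is the classical fibronectin receptor, alpha v pairs with several beta chains to bind RGD-containing proteins, alpha 2 with beta 1 binds collagen, and alpha 6 with beta 1 binds laminin. Laminins are cross-shaped trimers of an alpha, a beta and a gamma chain that form, with collagen IV and nidogen, the sheet called the basement membrane, the earliest matrix that an embryo lays down. Fibrillar collagens are the matrix of connective tissue.

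Values are the deposited log2 intensities, with array medians of 6.22 to 6.27 and a correlation of 0.998 to 0.999 over genes within each pair of replicates. Background was set at a log2 value of 5.23, below which 95% of 361 olfactory receptor genes, silent in most tissues, had their mean. ITGA5, ITGB1, FN1, LAMB1 and LAMC1 were above background on all 8 arrays. All 5 measured embryonic carcinoma markers, of 8 listed, were above background, and none of the 4 measured leukocyte markers was. PDGFRB, DCN, LUM, ACTA2 and POSTN, 5 of 7 fibroblast markers, were not above background on any array, and neither were 4 of 5 endothelial markers. The summed log2 level of the 7 fibroblast markers was 37.4 to 38.6 in the depletions and 39.4 to 39.6 in siNTC, that of the 5 endothelial markers was 22.3 to 23.0 in the depletions and 23.2 to 23.9 in siNTC, and that of the 6 measured primitive and parietal endoderm markers was 33.1 to 33.5 in the depletions and 33.9 to 34.9 in siNTC. Each of these sums includes genes below background on all arrays. In the mean of the 3 depletions, GATA6 rose (log2 difference 0.37) while DAB2 fell (-0.65), each past the test described below. Of the embryonic carcinoma markers, L1TD1 (0.44) and DPPA4 (0.14) rose and PODXL (-0.66) and SOX2 (-0.13) fell, each past that test. In that comparison 16.5% of all genes passed the test as higher and 24.2% as lower. THY1 (-0.48) and KDR (-0.66) were the only fibroblast and endothelial markers above background to pass it. AFP, LUM and POSTN also passed as lower, but lay below background on all arrays. The part of these summed shifts in the matrix results below was not tested. In RNA from a whole culture, fewer cells of a type and less RNA per cell cannot be told apart.

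Of the 82 genes, 42 were above background on all 8 arrays, 6 on some and 34 on none. NCCIT cells had signal for 8 of 10 laminin chains, 21 of 43 collagen chains and 9 of 24 integrin subunits on every array. The 4 leukocyte integrin chains ITGAE, ITGAL, ITGAM and ITGAX, the beta chains ITGB2, ITGB3, ITGB4, ITGB6 and ITGB7, and the alpha chains ITGA3, ITGA4, ITGA8, ITGA10 and ITGA11 were not above background on any array. For genes of that kind the arrays give no usable fold.

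A few members changed in the same direction in every depletion, by unequal amounts, and most did not pass the test. ITGA5, ITGB8, ITGA2 and LAMA1 rose in all 3 depletions, and LAMA2, COL18A1, FN1 and ITGB1 fell. The test was the moderated test of limma with Benjamini-Hochberg adjustment over all 18417 genes, and genes with an adjusted p under 0.05 count as called. In siTET1, 16 of 82 members were called (19.5%), against 34.3% of all genes, with 9 members higher where 15.6% of all genes were higher and 7 members lower where 18.7% were lower. In siTET2, 16 members were called (19.5%) against 36.2% of all genes, 8 of them higher (14.4% of all genes) and 8 lower (21.8% of all genes). In siTET3, 20 members were called (24.4%) against 36.1% of all genes, 9 higher (13.8% of all genes) and 11 lower (22.3% of all genes). The mean of the 3 depletions differed from siNTC for 22 members (26.8%), against 40.7% of all genes, with 10 higher (16.5% of all genes) and 12 lower (24.2% of all genes). The median log2 difference of the 82 members in that comparison was 0.01, and that of all genes was -0.03. In each of these comparisons the share called was lower among the members than among all genes, and 34 of the members had no signal above background. A mean above background was seen for 46 of the 82 members and for 12682 of the 18417 genes. The part of this difference in the shares called was not tested. After quantile normalization the higher and lower calls were 12 and 6 in siTET1, 11 and 7 in siTET2, 10 and 7 in siTET3 and 13 and 9 in the mean. With the median shift of the 24 nearest genes above background subtracted from each gene they were 8 and 11 in siTET1, 12 and 6 in siTET2, 17 and 8 in siTET3 and 16 and 11 in the mean, so that the balance of directions depended on the scaling.

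Calls with at least a 1.5-fold change numbered 6 members in siTET1 (5.13% of all genes), 6 in siTET2 (6.16% of all genes), 5 in siTET3 (5.91% of all genes) and 7 in the mean of the 3 (5.18% of all genes). These were ITGA5, ITGB8, ITGA2, LAMA1, LAMA2, COL18A1 and FN1. The called members LAMB4, ITGAX, ITGB4, COL5A2 and COL6A5 lay below background on all 8 arrays, so no fold is given for them.

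**Figure D1:**
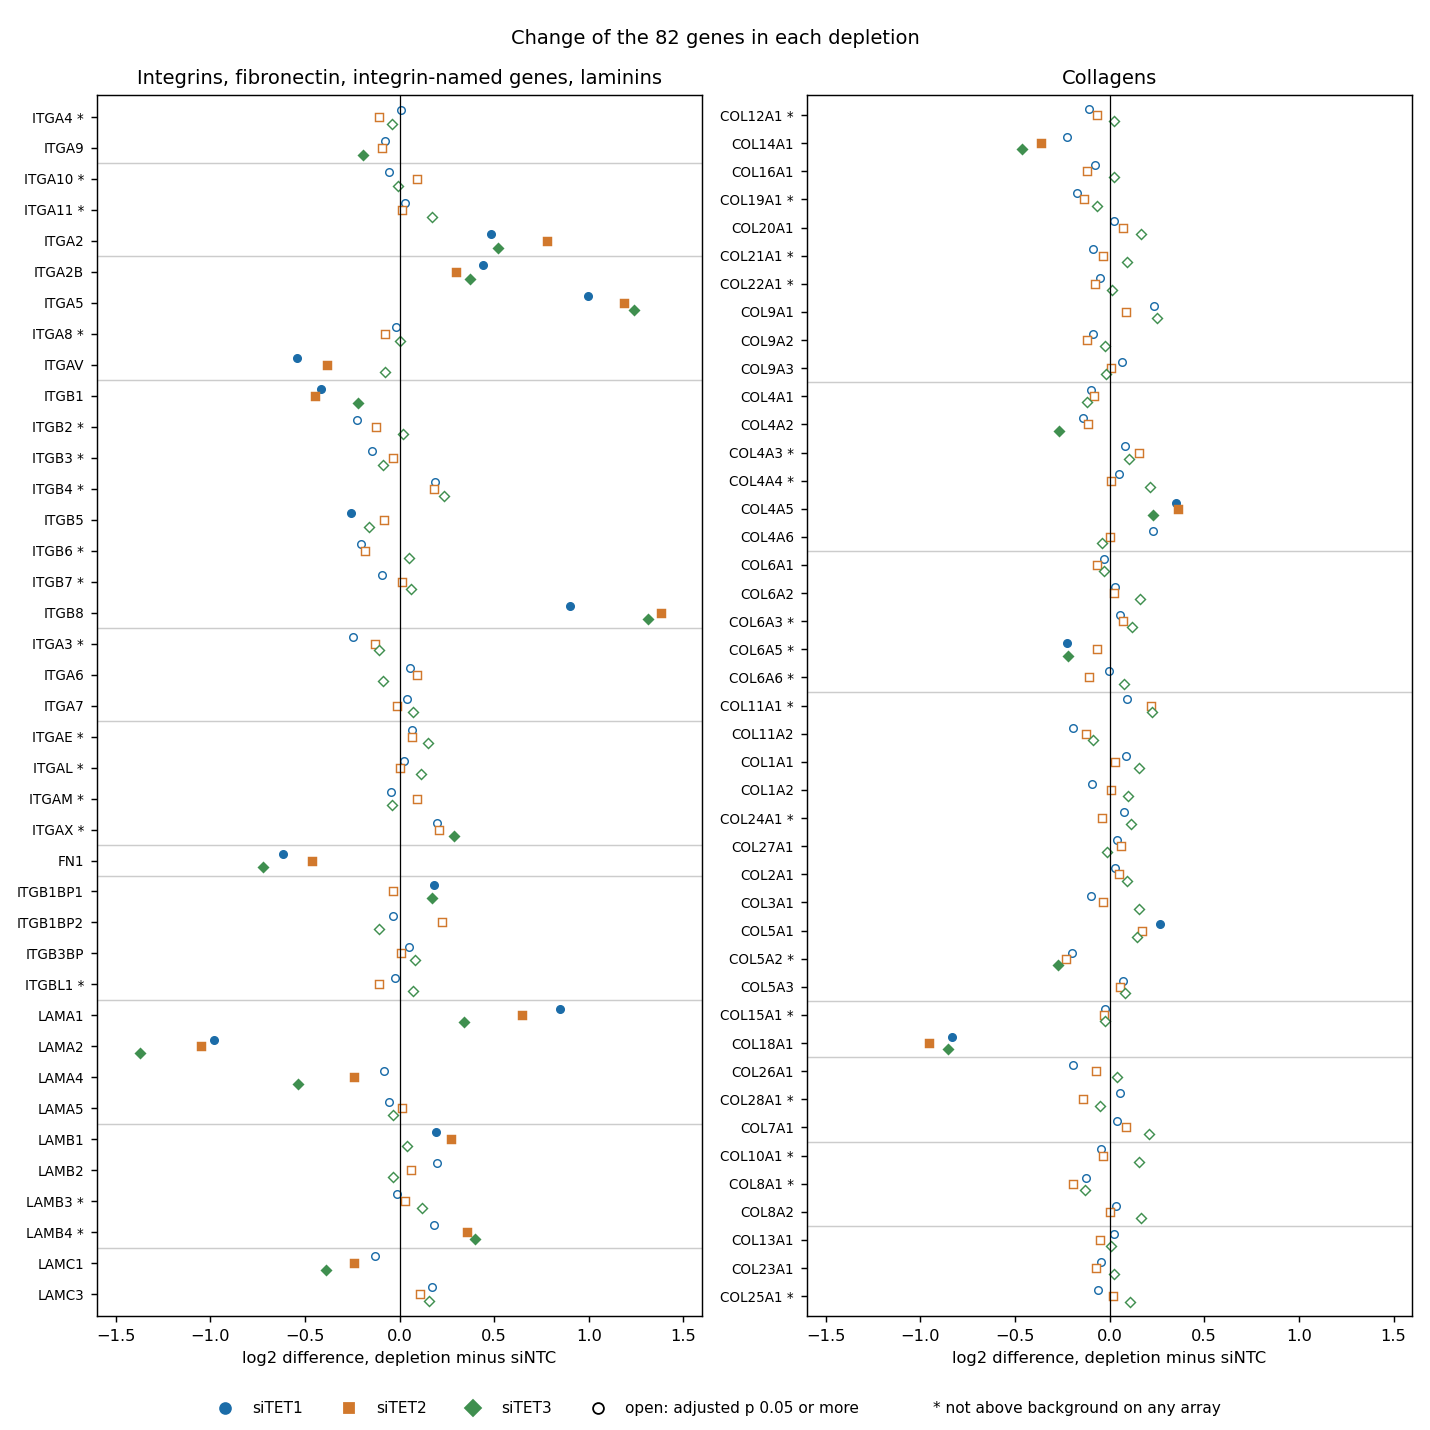
Log2 difference of each of the 82 genes between a depletion and siNTC (x axis, n = 2 arrays per group), with families separated by grey lines, filled symbols for genes called in that depletion and an asterisk for genes not above background on any array. ITGA5, ITGB8 and LAMA1 lie to the right of 0 in all 3 depletions and LAMA2, COL18A1 and FN1 to the left, while the fibrillar collagens cluster around 0.

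Of the fibronectin receptor, the alpha chain ITGA5 rose while the beta chain ITGB1 fell, as did the ligand FN1. ITGA5 was at 7.27 and 7.39 in siTET1, 7.64 and 7.41 in siTET2, 7.53 and 7.62 in siTET3, and 6.24 and 6.43 in siNTC. Every depletion array lay above both siNTC arrays. ITGA5 rose 1.99-fold in siTET1 (log2 0.99 ± 0.098, SE, n = 2 per group, adjusted p = 5e-06), 2.28-fold in siTET2 (1.19 ± 0.098, adjusted p = 9.21e-07) and 2.36-fold in siTET3 (1.24 ± 0.098, adjusted p = 6.85e-07). The 3 depletions were not separated by the test: the difference of siTET3 from siTET1 was 0.24 (95% interval 0.03 to 0.46, adjusted p = 0.131).

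ITGB1, the beta chain shared by the fibronectin, collagen and laminin receptors, was at 8.83 and 8.86 in siTET1, 8.75 and 8.87 in siTET2, 9.08 and 9.0 in siTET3, and 9.20 and 9.32 in siNTC. All depletion arrays lay below siNTC, with the siTET3 arrays nearest to them. ITGB1 fell to 74.9% of siNTC in siTET1 (-0.42 ± 0.062, adjusted p = 0.000158), to 73.2% in siTET2 (-0.45 ± 0.062, adjusted p = 7.68e-05) and to 86.0% in siTET3 (-0.22 ± 0.062, adjusted p = 0.0144). The siTET3 change was not past the test after quantile normalization (-0.14, adjusted p = 0.113), without siTET3 replicate 2 (-0.18, adjusted p = 0.0764), without siNTC replicate 2 (-0.16, adjusted p = 0.124) or with its neighbours subtracted (-0.17, adjusted p = 0.068). ITGB1 was higher in siTET3 than in siTET2 by 0.23 ± 0.062 (adjusted p = 0.0285), a call lost without either siTET2 array or siTET3 replicate 1 (0.17 to 0.29).

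FN1, the matrix glycoprotein bound by alpha 5 beta 1, was at 9.84 and 9.91 in siTET1, 10.04 and 10.01 in siTET2, 9.82 and 9.72 in siTET3, and 10.50 and 10.48 in siNTC. No depletion array reached the siNTC level. FN1 fell to 65.3% of siNTC in siTET1 (-0.61 ± 0.047, adjusted p = 5.74e-07), to 72.6% in siTET2 (-0.46 ± 0.047, adjusted p = 5.46e-06) and to 60.6% in siTET3 (-0.72 ± 0.047, adjusted p = 1.35e-07). It was lower in siTET3 than in siTET2 by -0.26 ± 0.047 (adjusted p = 0.00312). FN1 lies on chromosome 2 among genes that were also lower: the 24 nearest genes above background had a median difference of -0.30 in siTET1, -0.39 in siTET2 and -0.37 in siTET3. With that median subtracted, FN1 was at -0.31 in siTET1 (adjusted p = 0.000197), -0.07 in siTET2 (adjusted p = 0.304) and -0.35 in siTET3 (adjusted p = 7.19e-05).

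The alpha v chain ITGAV, which binds fibronectin and vitronectin with several beta chains, was at 7.52 and 7.49 in siTET1, 7.65 and 7.68 in siTET2, 7.87 and 8.08 in siTET3, and 8.07 and 8.02 in siNTC. It was lower than siNTC in siTET1 and siTET2, while the siTET3 arrays overlapped siNTC. The falls were -0.54 ± 0.076 in siTET1 (68.7% of siNTC, adjusted p = 0.000102) and -0.38 ± 0.076 in siTET2 (76.6% of siNTC, adjusted p = 0.00139), and siTET3 differed by -0.08 ± 0.076 (95% interval -0.24 to 0.09, adjusted p = 0.486). The difference itself was tested: ITGAV was higher in siTET3 than in siTET1 by 0.47 ± 0.076 (adjusted p = 0.00155) and than in siTET2 by 0.31 ± 0.076 (adjusted p = 0.0188). The second of these was not past the test without siTET2 replicate 1 (0.29, adjusted p = 0.143), siTET2 replicate 2 (0.33, adjusted p = 0.105) or siTET3 replicate 2 (0.20, adjusted p = 0.0948). ITGAV is also on chromosome 2, and with the median of its neighbours subtracted it was at -0.33 in siTET1 (adjusted p = 0.00281), -0.09 in siTET2 (adjusted p = 0.376) and 0.20 in siTET3 (adjusted p = 0.0454).

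ITGB8, a beta chain that pairs with alpha v and binds latent TGF-beta, rose while its partner did not. It was at 7.32 and 7.45 in siTET1, 7.85 and 7.88 in siTET2, 7.76 and 7.84 in siTET3, and 6.48 and 6.49 in siNTC. The groups did not overlap, and the siTET1 arrays lay between siNTC and the other depletions. ITGB8 rose 1.87-fold in siTET1 (0.90 ± 0.076, adjusted p = 1.35e-06), 2.61-fold in siTET2 (1.38 ± 0.076, adjusted p = 2.86e-08) and 2.49-fold in siTET3 (1.31 ± 0.076, adjusted p = 5.45e-08). It was higher in siTET2 than in siTET1 by 0.48 ± 0.076 (adjusted p = 0.00292) and in siTET3 than in siTET1 by 0.41 ± 0.076 (adjusted p = 0.00339). ITGB8 was the only member of 82 called between siTET2 and siTET1 (1.22%), where 6.46% of all genes were called, 2.33% higher and 4.13% lower. That call was lost without siTET1 replicate 1 (0.41, adjusted p = 0.0537) or siTET2 replicate 2 (0.46, adjusted p = 0.0555). Its neighbours on chromosome 7 were higher by a median of 0.30 in siTET1, 0.28 in siTET2 and 0.25 in siTET3, and with these subtracted ITGB8 rose by 0.60, 1.11 and 1.06, each past the test.

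ITGA2, the alpha chain of the collagen receptor alpha 2 beta 1, was at 6.82 and 6.99 in siTET1, 7.22 and 7.18 in siTET2, 6.82 and 7.06 in siTET3, and 6.32 and 6.53 in siNTC. All depletion arrays were above siNTC. The rise was 1.40-fold in siTET1 (0.48 ± 0.11, adjusted p = 0.00286), 1.71-fold in siTET2 (0.78 ± 0.11, adjusted p = 6.73e-05) and 1.43-fold in siTET3 (0.52 ± 0.11, adjusted p = 0.00172).

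**Figure D2:**
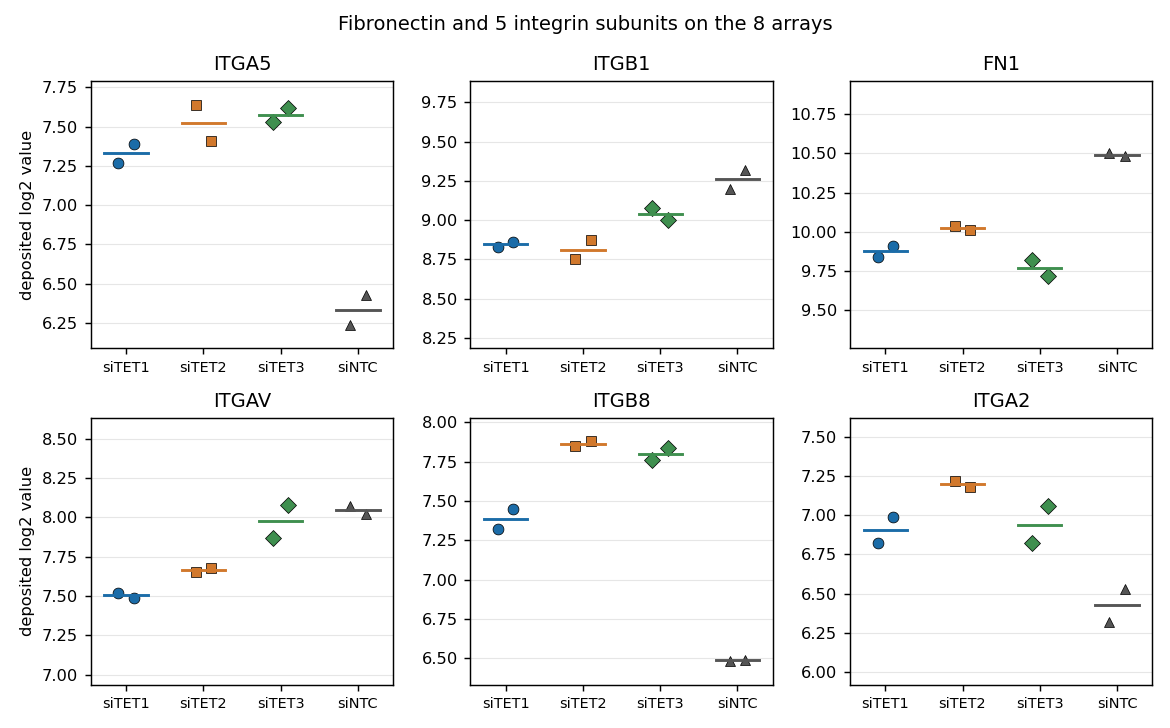
Deposited log2 values (y axis, the same span in each panel) of FN1 and 5 integrin subunits on the 2 arrays of siTET1, siTET2, siTET3 and siNTC, with horizontal lines at group means. ITGA5 and ITGB8 are higher on all 6 depletion arrays than on the siNTC arrays, ITGB1 and FN1 are lower on all 6, and ITGAV in siTET3 overlaps siNTC.

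Other integrin chains changed less. Those named in this paragraph and the next, like ITGAV above, were chosen after their values were seen. ITGA2B, the alpha IIb chain known from platelets, was at 6.13 and 6.26 in siTET1, 6.13 and 5.97 in siTET2, 6.13 and 6.13 in siTET3, and 5.78 and 5.73 in siNTC, a rise of 1.36-fold, 1.23-fold and 1.29-fold in siTET1, siTET2 and siTET3 (adjusted p = 0.00333, 0.0303 and 0.00932). The siTET2 call was lost without siTET2 replicate 1 (0.22, adjusted p = 0.244) or either siNTC array (0.32 and 0.28, adjusted p = 0.0743 and 0.118), and the siTET3 call without siNTC replicate 2 (0.35, adjusted p = 0.0509). ITGB5, another partner of alpha v, fell to 83.8% of siNTC in siTET1 (-0.26 ± 0.072, adjusted p = 0.0143) and not past the test in siTET2 (-0.08) or siTET3 (-0.16). The siTET1 call was lost without siTET1 replicate 1 (-0.18, adjusted p = 0.159) or siNTC replicate 1 (-0.25, adjusted p = 0.0644). ITGA9, an alpha chain that binds tenascin and osteopontin, fell to 87.6% in siTET3 (-0.19 ± 0.053, adjusted p = 0.0127), a value of -0.05 (adjusted p = 0.525) with its neighbours subtracted and -0.08 (adjusted p = 0.284) after quantile normalization.

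ITGA6, the laminin-binding alpha chain that is abundant on pluripotent cells, was at 10.23 and 10.21 in siTET1, 10.26 and 10.26 in siTET2, 10.05 and 10.11 in siTET3, and 10.17 and 10.16 in siNTC. No depletion was past the test against siNTC, with 95% intervals of -0.03 to 0.14 in siTET1, 0.00 to 0.18 in siTET2 and -0.18 to 0.00 in siTET3. It was lower in siTET3 than in siTET1 by -0.14 ± 0.041 (adjusted p = 0.0356) and than in siTET2 by -0.18 ± 0.041 (adjusted p = 0.0115). The call against siTET1 was lost without either siTET1 array, either siTET2 array or siTET3 replicate 1 (-0.16 to -0.11), and the call against siTET2 without either siTET2 array or siTET3 replicate 1 (-0.18 to -0.15). Its neighbours on chromosome 2 were lower by a median of -0.37 in siTET1, -0.38 in siTET2 and -0.35 in siTET3, and with these subtracted ITGA6 was higher by 0.43, 0.47 and 0.26 (adjusted p = 1.44e-05, 5.02e-06 and 0.000892).

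Averaged over the depletions, 6 of the 24 integrin subunits rose (16.5% of all genes), 4 fell (24.2% of all genes) and 14 did not pass the test, and their median log2 difference was 0.01 beside -0.03 for all genes. Of the 6 that rose, ITGB4 and ITGAX were below background. The 4 genes that share only the prefix moved little. ITGB1BP1, which binds the tail of beta 1 and holds the receptor inactive, rose by 0.18 ± 0.061 in siTET1 (adjusted p = 0.0364) and 0.17 ± 0.061 in siTET3 (adjusted p = 0.0432) and was at -0.03 in siTET2, and the siTET1 call was lost when any 1 of the siTET1, siTET2 or siNTC arrays was left out (0.16 to 0.21) and the siTET3 call when any 1 array other than siTET3 replicate 1 was (0.08 to 0.19). With its neighbours subtracted ITGB1BP1 was at 0.08 in siTET1 (adjusted p = 0.313) and 0.10 in siTET3 (adjusted p = 0.206). It was higher in siTET3 than in siTET2 by 0.21 ± 0.061 (adjusted p = 0.0447), a call lost without any 1 array other than siTET3 replicate 1 (0.11 to 0.24). ITGB1BP2, a muscle chaperone also called melusin, differed only between siTET3 and siTET2 (-0.33 ± 0.094, adjusted p = 0.0366), a call lost without either siTET2 array or siTET3 replicate 1 (-0.42 to -0.25). ITGB3BP, a centromere protein also called CENPR, was at 0.05 to 0.08 in siTET1 and siTET3 and 0.01 in siTET2, none past the test, and ITGBL1 was not above background.

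The sequences around the starts of ITGA5, ITGB8 and FN1 are shown because these genes gave the largest changes among the receptors and their ligand. Each is the RefSeq window (GRCh38.p14) from 250 bases before to 50 bases after the annotated start, in the direction of transcription, and 60 of the 82 members had such a window. Where a gene had several annotated starts, the window listed at the top was taken. Capitals mark CG dinucleotides, since the methylated cytosine that TET enzymes oxidise lies mainly in this pair of bases in human DNA. No methylation was measured in these samples, and the sequences are a description. The ITGA5 window is at chr12:54419217-54419516 on the minus strand, the ITGB8 window at chr7:20330650-20330949 on the plus strand and the FN1 window at chr2:215436019-215436318 on the minus strand.
ITGA5: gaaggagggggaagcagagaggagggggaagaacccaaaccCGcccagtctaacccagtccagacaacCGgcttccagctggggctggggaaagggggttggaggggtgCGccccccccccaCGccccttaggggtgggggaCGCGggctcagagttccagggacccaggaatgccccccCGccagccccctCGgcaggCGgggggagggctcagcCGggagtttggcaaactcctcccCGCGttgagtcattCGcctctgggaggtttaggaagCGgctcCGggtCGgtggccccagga
ITGB8: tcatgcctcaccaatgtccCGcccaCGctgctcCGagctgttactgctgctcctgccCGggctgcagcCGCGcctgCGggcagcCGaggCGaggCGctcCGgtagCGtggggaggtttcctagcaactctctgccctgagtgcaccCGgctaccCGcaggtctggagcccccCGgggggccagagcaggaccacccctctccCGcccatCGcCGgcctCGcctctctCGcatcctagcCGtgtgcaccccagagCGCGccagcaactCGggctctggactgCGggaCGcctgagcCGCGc
FN1: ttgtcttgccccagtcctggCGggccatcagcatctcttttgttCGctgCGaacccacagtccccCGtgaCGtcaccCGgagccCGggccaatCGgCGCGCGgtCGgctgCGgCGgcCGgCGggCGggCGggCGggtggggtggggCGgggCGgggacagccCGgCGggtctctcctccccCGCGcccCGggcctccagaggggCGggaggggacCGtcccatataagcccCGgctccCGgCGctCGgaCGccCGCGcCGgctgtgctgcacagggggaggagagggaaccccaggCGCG
The windows hold 16 CG dinucleotides at ITGA5, 28 at ITGB8 and 38 at FN1, against a median of 14 over 27305 windows, 1 per gene in the RefSeq table. As many CGs as in ITGA5 occur in 47.4% of all windows, as many as in ITGB8 in 25.9% and as many as in FN1 in 9.69%. The motifs below were searched on both strands, with overlaps between motifs allowed. The cAMP response element TGACGTCA was found at FN1 and at neither receptor gene, and 1.98% of all windows hold it. The AP-1 site TGANTCA was found at ITGA5 only of the 3, and 7.76% of all windows hold it. The GC box GGGCGG was found 1 time at ITGA5, 2 times at ITGB8 and 6 times at FN1, and 44.6% of all windows hold at least 1.

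The laminin alpha chains moved in opposite directions: LAMA1 rose and LAMA2 fell in every depletion, and LAMA4 fell in siTET3. LAMA1, the alpha chain of laminin-111, the laminin of the early embryo, was at 8.66 and 8.62 in siTET1, 8.43 and 8.45 in siTET2, 8.12 and 8.15 in siTET3, and 7.84 and 7.75 in siNTC. The 4 groups did not overlap and stood in the order siTET1, siTET2, siTET3 and siNTC. LAMA1 rose 1.80-fold in siTET1 (0.85 ± 0.061, adjusted p = 3.31e-07), 1.57-fold in siTET2 (0.65 ± 0.061, adjusted p = 2.72e-06) and 1.27-fold in siTET3 (0.34 ± 0.061, adjusted p = 0.000618). It was lower in siTET3 than in siTET1 by -0.51 ± 0.061 (adjusted p = 0.000184) and than in siTET2 by -0.31 ± 0.061 (adjusted p = 0.00544), and the siTET2 difference was -0.32 (adjusted p = 0.0505) without siTET2 replicate 1 and -0.30 (adjusted p = 0.0675) without siTET2 replicate 2. siTET2 minus siTET1 was -0.20 ± 0.061, which did not pass the test (adjusted p = 0.0723).

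LAMA2, the alpha chain of laminin-211 of muscle and nerve, had the largest fall of all members. It was at 7.65 and 7.65 in siTET1, 7.54 and 7.62 in siTET2, 7.17 and 7.36 in siTET3, and 8.67 and 8.60 in siNTC. The siTET3 arrays were lowest and the siNTC arrays stood well above all others. LAMA2 fell to 50.7% of siNTC in siTET1 (-0.98 ± 0.077, adjusted p = 7.24e-07), to 48.3% in siTET2 (-1.05 ± 0.077, adjusted p = 3.11e-07) and to 38.7% in siTET3 (-1.37 ± 0.077, adjusted p = 4.23e-08). It was lower in siTET3 than in siTET1 by -0.39 ± 0.077 (adjusted p = 0.00498) and than in siTET2 by -0.32 ± 0.077 (adjusted p = 0.016). The second difference was lost without siTET2 replicate 1 (-0.36, adjusted p = 0.0649), siTET2 replicate 2 (-0.28, adjusted p = 0.162) or siTET3 replicate 1 (-0.22, adjusted p = 0.111).

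The window at the LAMA2 start is printed because this chain fell furthest, and it holds fewer CGs than the FN1 window. It lies at chr6:128882888-128883187 on the plus strand (RefSeq, GRCh38.p14), with CGs in capitals.
LAMA2: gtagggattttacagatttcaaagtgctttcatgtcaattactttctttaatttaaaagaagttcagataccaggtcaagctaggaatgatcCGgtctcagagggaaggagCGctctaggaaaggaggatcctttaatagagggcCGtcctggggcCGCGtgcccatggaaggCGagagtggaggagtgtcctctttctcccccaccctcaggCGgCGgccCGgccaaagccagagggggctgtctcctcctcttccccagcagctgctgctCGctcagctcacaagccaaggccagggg
It holds 10 CG dinucleotides, and 56.0% of all windows hold at least as many. None of the 3 motifs is in it. The table used here has no window for LAMA1.

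The chains that complete the trimers changed by smaller amounts, and LAMA4, LAMB1 and LAMC1 were chosen after their values were seen. LAMA4, the alpha chain of laminin-411, was at 7.23 and 7.41 in siTET1, 7.19 and 7.13 in siTET2, 6.83 and 6.90 in siTET3, and 7.46 and 7.35 in siNTC. It fell to 69.0% of siNTC in siTET3 (-0.54 ± 0.086, adjusted p = 0.000276) and to 84.8% in siTET2 (-0.24 ± 0.086, adjusted p = 0.0471), and siTET1 overlapped siNTC (-0.08, adjusted p = 0.524). The siTET2 call was lost when any of the 4 siTET2 and siNTC arrays was left out, with values of -0.29 to -0.18, and also after quantile normalization (-0.21, adjusted p = 0.0552), with the replicate block (-0.24, adjusted p = 0.054) and with its neighbours subtracted (-0.19, adjusted p = 0.123). LAMA4 was lower in siTET3 than in siTET1 by -0.45 ± 0.086 (adjusted p = 0.00394; -0.36 and adjusted p = 0.0667 without siTET1 replicate 2) and than in siTET2 by -0.30 ± 0.086 (adjusted p = 0.0405), a call lost without either siTET2 array or siTET3 replicate 1 (-0.33 to -0.26).

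LAMB1, the beta chain of laminin-111, was at 9.71 and 9.70 in siTET1, 9.75 and 9.81 in siTET2, 9.54 and 9.56 in siTET3, and 9.50 and 9.52 in siNTC. The siTET3 arrays were close to siNTC and the others above them. LAMB1 rose 1.14-fold in siTET1 (0.19 ± 0.045, adjusted p = 0.00433) and 1.21-fold in siTET2 (0.27 ± 0.045, adjusted p = 0.000319) and was at 0.04 in siTET3 (95% interval -0.06 to 0.14). With its neighbours subtracted the siTET1 value was 0.13 (adjusted p = 0.0536). It was lower in siTET3 than in siTET2 by -0.23 ± 0.045 (adjusted p = 0.00444; -0.20 and adjusted p = 0.0776 without siTET2 replicate 2) and than in siTET1 by -0.15 ± 0.045 (adjusted p = 0.0374), a call lost when any 1 of the 6 depletion arrays was left out (-0.16 to -0.15). LAMC1, the gamma chain of most laminins, was at 10.12 and 10.16 in siTET1, 10.02 and 10.04 in siTET2, 9.81 and 9.96 in siTET3, and 10.25 and 10.29 in siNTC. It fell to 84.8% of siNTC in siTET2 (-0.24 ± 0.051, adjusted p = 0.00219) and to 76.5% in siTET3 (-0.39 ± 0.051, adjusted p = 5.12e-05), and was at -0.13 in siTET1 (adjusted p = 0.072). It was lower in siTET3 than in siTET1 by -0.26 ± 0.051 (adjusted p = 0.00469; -0.24 and adjusted p = 0.0581 without siTET1 replicate 2).

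LAMA5, the alpha chain of the laminin-511 on which pluripotent cells are grown, lay between 7.08 and 7.20 on all 8 arrays. Its 95% intervals were -0.22 to 0.11 in siTET1, -0.15 to 0.18 in siTET2 and -0.20 to 0.13 in siTET3. LAMB2 (0.20, 0.06 and -0.04 in siTET1, siTET2 and siTET3) and LAMC3 (0.17, 0.11 and 0.16) did not pass the test, and LAMB3 and LAMB4 were not above background.

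Several laminin chains were lower in siTET3 than in the other depletions. Against siTET1, 8 of the 82 members were called (9.76%) where 13.8% of all genes were, 2 of them higher (3.82% of all genes) and 6 lower (9.94% of all genes). The 6 lower members were the 5 laminin chains LAMA1, LAMA2, LAMA4, LAMB1 and LAMC1 and the laminin receptor chain ITGA6. Against siTET2, 10 members were called (12.2%) where 12.2% of all genes were, 3 higher (4.94% of all genes) and 7 lower (7.24% of all genes), and 4 laminin chains, LAMA1, LAMA2, LAMA4 and LAMB1, were among the lower. The median difference of the 10 laminin chains was -0.19 from siTET1 (all genes -0.001) and -0.12 from siTET2 (all genes 0.01). None of the 43 collagen chains was called in either of these comparisons. LAMA1 and LAMA2 in siTET3 against siTET1 kept the call in all 15 alternatives that left the fold threshold aside, and neither reached 1.5-fold. Without an intensity trend in the variances, the calls of LAMB1, LAMC1 and ITGA6 against siTET1 and of LAMA2, LAMA4, ITGA6, ITGAV, ITGB1, ITGB1BP1 and ITGB1BP2 against siTET2 were lost. After quantile normalization, those of LAMB1 and ITGA6 against siTET1 and of LAMA4 against siTET2 were lost. With their neighbours subtracted, the calls of LAMB1 (-0.14, adjusted p = 0.0874) and ITGA6 (-0.16, adjusted p = 0.0544) against siTET1 were lost.

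**Figure D3:**
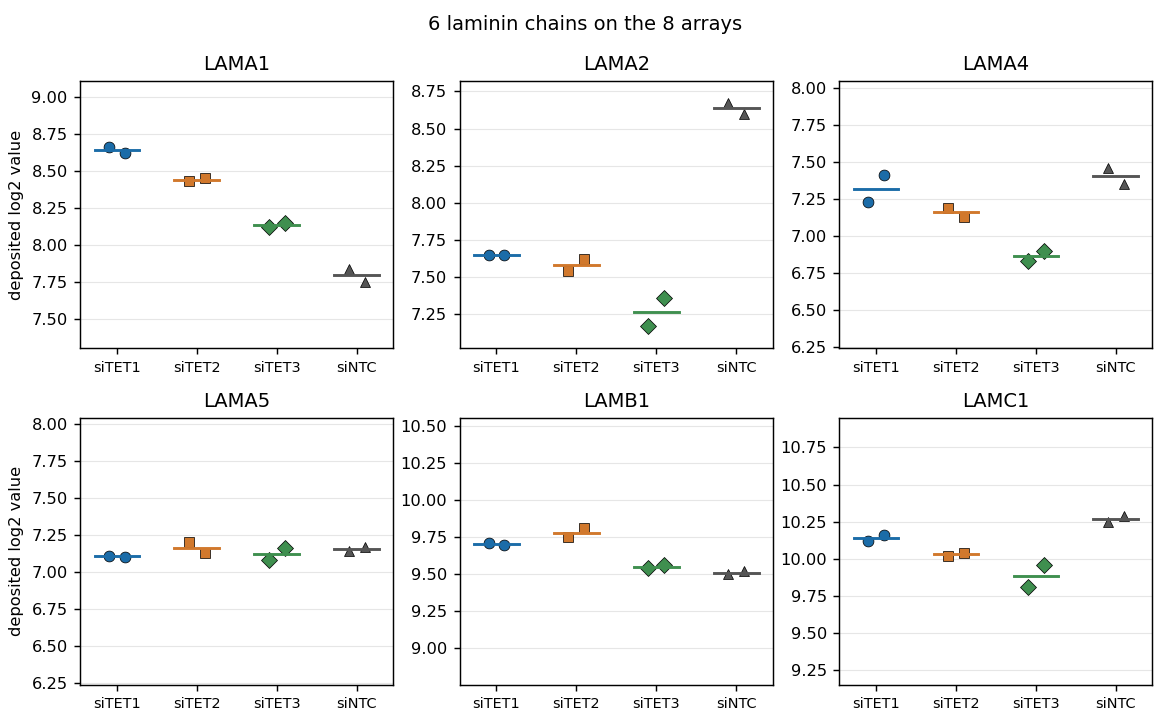
Deposited log2 values (y axis, the same span in each panel) of 6 laminin chains on the 2 arrays of siTET1, siTET2, siTET3 and siNTC, with horizontal lines at group means. LAMA1 is higher and LAMA2 lower on all 6 depletion arrays than on siNTC, and LAMA1, LAMA2, LAMA4, LAMB1 and LAMC1 are all lower in siTET3 than in siTET1.

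Collagens were little changed apart from COL18A1. Averaged over the depletions, 1 of 43 chains rose (16.5% of all genes), 4 fell (24.2% of all genes) and 38 did not pass the test, with a median of 0.00 beside -0.03 for all genes. COL18A1, a basement membrane collagen whose end fragment is endostatin, was at 7.02 and 7.05 in siTET1, 6.90 and 6.93 in siTET2, 7.14 and 6.89 in siTET3, and 7.93 and 7.81 in siNTC. All depletion arrays lay well below siNTC, and the siTET3 arrays spanned those of siTET1 and siTET2. COL18A1 fell to 56.1% of siNTC in siTET1 (-0.83 ± 0.092, adjusted p = 1.27e-05), to 51.6% in siTET2 (-0.95 ± 0.092, adjusted p = 3.48e-06) and to 55.3% in siTET3 (-0.86 ± 0.092, adjusted p = 9.25e-06). Its relative COL15A1, the other multiplexin, was not above background.

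Collagen IV forms the network of the basement membrane, and its 6 chains are encoded by head-to-head gene pairs that start close together on opposite strands. The starts of COL4A1 and COL4A2 are 127 bases apart in RefSeq, those of COL4A3 and COL4A4 419 bases and those of COL4A5 and COL4A6 380 bases. COL4A1 was at 5.70 and 5.66 in siTET1, 5.64 and 5.75 in siTET2, 5.67 and 5.64 in siTET3, and 5.81 and 5.74 in siNTC, with differences of -0.10, -0.08 and -0.12 in siTET1, siTET2 and siTET3, none past the test. COL4A2 was at 6.64 and 6.69 in siTET1, 6.76 and 6.63 in siTET2, 6.51 and 6.58 in siTET3, and 6.78 and 6.84 in siNTC. It fell in siTET3 alone (-0.27 ± 0.087, 83.1% of siNTC, adjusted p = 0.03), and the call was lost after quantile normalization (-0.22, adjusted p = 0.0598), without siTET3 replicate 1 (-0.23, adjusted p = 0.111) or without either siNTC array (-0.30 and -0.23, adjusted p = 0.0574 and 0.135). COL4A3 and COL4A4 were not above background on any array.

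The genes of the X-linked pair were not called alike. COL4A5 was at 7.41 and 7.47 in siTET1, 7.47 and 7.42 in siTET2, 7.29 and 7.35 in siTET3, and 7.06 and 7.11 in siNTC. Every depletion array was above siNTC. It rose 1.28-fold in siTET1 (0.35 ± 0.074, adjusted p = 0.00231), 1.28-fold in siTET2 (0.36 ± 0.074, adjusted p = 0.00178) and 1.17-fold in siTET3 (0.23 ± 0.074, adjusted p = 0.0271), and the siTET3 call was lost without siTET3 replicate 2 (0.20, adjusted p = 0.09) or siNTC replicate 1 (0.20, adjusted p = 0.114). COL4A6 was at 6.38 and 6.29 in siTET1, 6.13 and 6.08 in siTET2, 6.12 and 6.01 in siTET3, and 6.07 and 6.14 in siNTC. Its siTET2 and siTET3 arrays overlapped siNTC. The differences were 0.23 ± 0.093 in siTET1 (adjusted p = 0.0762), 0.00 ± 0.093 in siTET2 (95% interval -0.20 to 0.20) and -0.04 ± 0.093 in siTET3 (95% interval -0.24 to 0.16). The difference in response between the 2 genes was not tested.

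The windows of COL18A1, which fell most among the collagens, and of the COL4A5 and COL4A6 pair are printed for comparison, again from RefSeq (GRCh38.p14) with CGs in capitals. The COL18A1 window is at chr21:45404915-45405214 on the plus strand, the COL4A5 window at chrX:108439588-108439887 on the plus strand and the COL4A6 window at chrX:108439409-108439708 on the minus strand. The windows of the pair share 121 bases, read in opposite directions.
COL18A1: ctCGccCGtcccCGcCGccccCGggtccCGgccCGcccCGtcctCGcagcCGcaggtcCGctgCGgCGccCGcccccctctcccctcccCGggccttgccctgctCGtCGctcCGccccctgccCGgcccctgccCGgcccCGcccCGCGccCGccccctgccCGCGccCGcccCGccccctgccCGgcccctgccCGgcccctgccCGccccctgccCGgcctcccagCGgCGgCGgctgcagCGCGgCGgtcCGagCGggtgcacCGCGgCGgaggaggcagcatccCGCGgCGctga
COL4A5: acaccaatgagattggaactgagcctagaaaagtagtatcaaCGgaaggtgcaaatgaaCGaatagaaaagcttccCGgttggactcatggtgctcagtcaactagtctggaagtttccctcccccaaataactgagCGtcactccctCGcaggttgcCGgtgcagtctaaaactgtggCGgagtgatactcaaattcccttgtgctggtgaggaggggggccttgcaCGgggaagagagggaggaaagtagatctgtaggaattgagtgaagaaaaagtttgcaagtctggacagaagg
COL4A6: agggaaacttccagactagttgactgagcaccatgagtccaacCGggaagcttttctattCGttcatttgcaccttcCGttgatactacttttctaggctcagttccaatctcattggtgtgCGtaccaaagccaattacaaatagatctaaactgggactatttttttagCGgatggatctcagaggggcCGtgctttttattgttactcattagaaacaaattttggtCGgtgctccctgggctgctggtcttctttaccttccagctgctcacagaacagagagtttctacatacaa
The COL18A1 window holds 46 CG dinucleotides, which 2.83% of all windows reach, and 9 GC boxes. The COL4A5 and COL4A6 windows hold 8 and 7 CGs, and none of the 3 motifs.

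**Figure D4:**
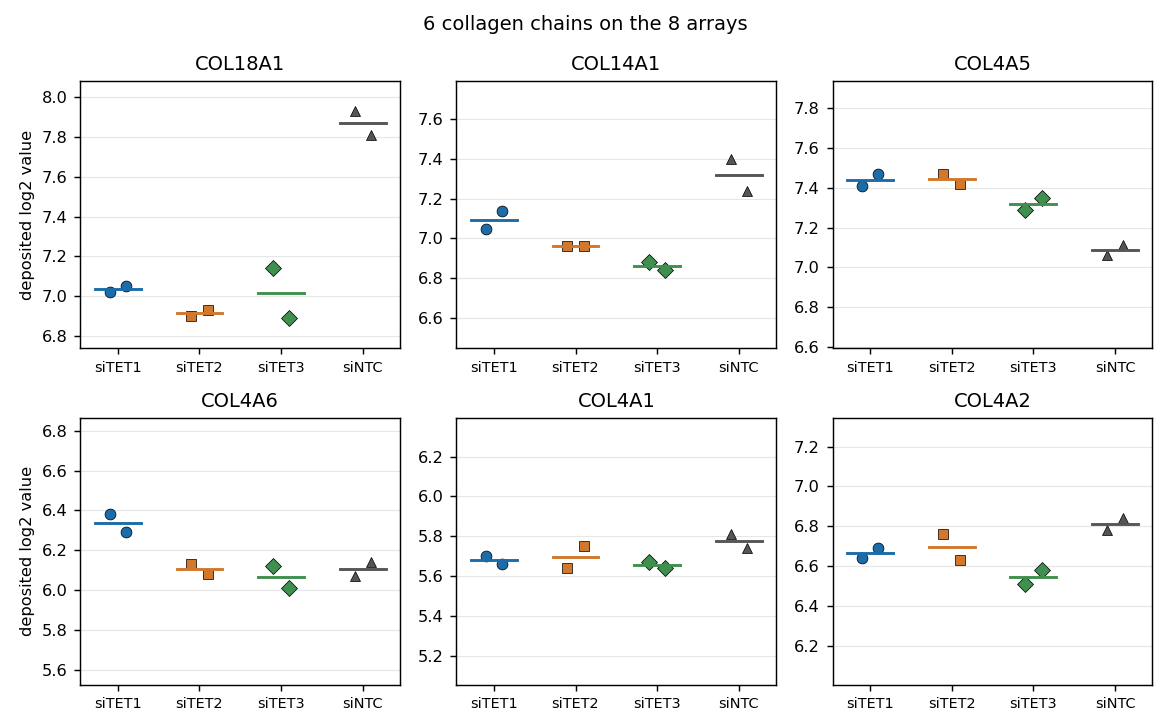
Deposited log2 values (y axis, the same span in each panel) of 6 collagen chains on the 2 arrays of siTET1, siTET2, siTET3 and siNTC, with horizontal lines at group means. COL18A1 and COL14A1 are lower and COL4A5 is higher on all 6 depletion arrays than on siNTC, while COL4A6 in siTET2 and siTET3 overlaps siNTC.

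Of the remaining collagens, 2 that were above background were called, both chosen here after their values were seen. COL14A1, a collagen that sits on the surface of fibrils, was at 7.05 and 7.14 in siTET1, 6.96 and 6.96 in siTET2, 6.88 and 6.84 in siTET3, and 7.40 and 7.24 in siNTC. It fell to 77.9% of siNTC in siTET2 (-0.36 ± 0.084, adjusted p = 0.0043; -0.28 and adjusted p = 0.0511 without siNTC replicate 1) and to 72.6% in siTET3 (-0.46 ± 0.084, adjusted p = 0.000742), and was at -0.23 in siTET1 (adjusted p = 0.0555). COL5A1 rose 1.2-fold in siTET1 (0.27 ± 0.091, adjusted p = 0.0371), with values of 6.03 and 6.0 in siTET1 and 5.76 and 5.74 in siNTC. The COL5A1 call was lost without either siTET1 array, either siTET2 array or either siNTC array (0.25 to 0.28). It was also lost with the 4 arrays of the comparison alone (adjusted p = 0.0512) and with its neighbours subtracted (0.23, adjusted p = 0.0841). The 11 fibrillar collagens lay between -0.27 and 0.27 in the 3 depletions, COL1A1 among them at 6.29 and 6.2 in siTET1, 6.16 and 6.22 in siTET2, 6.33 and 6.29 in siTET3, and 6.13 and 6.19 in siNTC.

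Genes of collagen biosynthesis, of integrin adaptors and of other matrix functions were read from lists chosen with earlier results of these data known. Those named had the largest called changes of their list. Averaged over the depletions, 5 of 23 measured genes of collagen biosynthesis rose and 7 fell (median -0.07), where 16.5% of all genes rose and 24.2% fell (median -0.03). P3H2, which hydroxylates proline at the 3 position in collagen, was at 8.73 and 8.75 in siTET1, 9.29 and 9.32 in siTET2, 8.70 and 8.74 in siTET3, and 6.37 and 6.63 in siNTC, a rise of 5.36-fold in the mean (2.42 ± 0.062, adjusted p = 3.94e-11). LOX, which cross-links collagen and elastin, was at 6.23 and 6.38 in siTET1, 7.78 and 7.94 in siTET2, 6.69 and 6.68 in siTET3, and 5.47 and 5.38 in siNTC, so its siTET2 arrays stood above all others (mean rise 2.88-fold, 1.52 ± 0.077, adjusted p = 9.62e-09). The prolyl hydroxylase subunit P4HA2 rose by 0.91 ± 0.067 and the lysyl hydroxylase PLOD2 by 0.76 ± 0.048 (adjusted p = 2.17e-07 and 5.2e-08).

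Among 20 measured adaptors that link integrins to actin, 2 rose (16.5% of all genes) and 10 fell (24.2% of all genes) on average over the depletions (median -0.13, all genes -0.03). PARVA, which joins integrin-linked kinase to actin, fell to 56.0% of siNTC (-0.84 ± 0.049, adjusted p = 3.06e-08). The talins, which activate integrins by binding the beta tail, fell to 64.5% for TLN1 (-0.63 ± 0.046, adjusted p = 2.01e-07) and 61.0% for TLN2 (-0.71 ± 0.082, adjusted p = 1.19e-05). With its neighbours subtracted, TLN2 was at -0.36 (adjusted p = 0.00322). TNS3, a tensin, rose 1.57-fold (0.65 ± 0.041, adjusted p = 5.7e-08).

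Of 17 other matrix genes, 3 rose (16.5% of all genes) and 7 fell (24.2% of all genes), with a median of -0.16. THBS1, thrombospondin 1, fell to 50.1% of siNTC (-1.0 ± 0.072, adjusted p = 1.84e-07), SPARC, a collagen-binding glycoprotein, to 66.5% (-0.59 ± 0.048, adjusted p = 5.53e-07), NID1, the nidogen that joins laminin to collagen IV, to 71.2% (-0.49 ± 0.12, adjusted p = 0.00476) and TNC, tenascin C, to 75.7% (-0.40 ± 0.057, adjusted p = 7.74e-05). The NID1 call was lost without siNTC replicate 2 (-0.40). Of the single depletions, NID1 passed the test in siTET3 only (-0.71, adjusted p = 0.00183), where its arrays were at 6.69 and 7.25. It did not pass in siTET1 (-0.37, adjusted p = 0.0724) or siTET2 (-0.40, adjusted p = 0.0505). Of 13 matrix proteases and inhibitors, 5 rose (16.5% of all genes) and 4 fell (24.2% of all genes): the membrane metalloproteinase MMP16 rose 3.16-fold (1.66 ± 0.10, adjusted p = 5.07e-08), TIMP3 1.94-fold (0.95 ± 0.12, adjusted p = 2.31e-05) and ADAM15 1.39-fold (0.48 ± 0.077, adjusted p = 0.000243), while TIMP1 fell to 69.9% (-0.52 ± 0.041, adjusted p = 4.66e-07). With the clusters of a gene averaged, MMP16 was at 1.08 (adjusted p = 9.37e-08) and TIMP3 at 0.61 (adjusted p = 4.06e-05). Of 6 other matrix receptors only CD44, the hyaluronan receptor, was called in the mean of the 3 depletions, where 40.7% of all genes were. CD44 was at 71.8% of siNTC (-0.48 ± 0.052, adjusted p = 7.54e-06). The depletions were unequal, with CD44 at -0.83 in siTET1, -0.38 in siTET2 and -0.22 in siTET3. It was higher in siTET3 than in siTET1 by 0.605 ± 0.064 (adjusted p = 7.66e-05). In siTET1 alone, 1 of these receptors was also called higher.

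Some members lay among genes that shifted together, and the shift of the neighbours was set beside each of them. In the mean of the 3 depletions the 24 nearest genes had a median of -0.36 at FN1, -0.26 at ITGAV, -0.37 at ITGA6 and 0.28 at ITGB8, against -0.06 at ITGA5, 0.02 at LAMA1, -0.01 at LAMA2 and 0.03 at COL18A1. With it subtracted, FN1 was at -0.24 (adjusted p = 0.000207), ITGAV at -0.07 (adjusted p = 0.356), ITGA6 at 0.39 (adjusted p = 3.3e-06) and ITGB8 at 0.92 (adjusted p = 3.76e-08). LAMA2 was at -1.12 (adjusted p = 3.74e-09) and ITGA5 at 1.2 (adjusted p = 4.38e-08). The part of a shared regional shift in these results was not tested further.

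**Figure D5:**
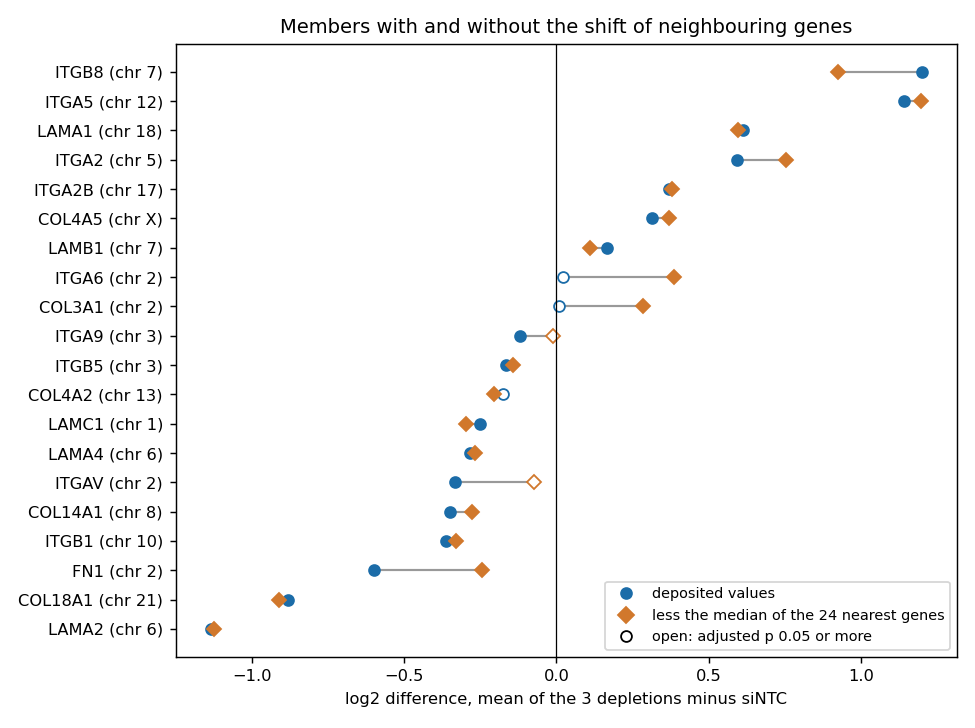
Log2 difference between the mean of the 3 depletions and siNTC (x axis) of the 20 members above background that were called with or without the shift of their neighbours, as deposited (circles) and after the median shift of the 24 nearest genes was subtracted (diamonds), with open symbols where the adjusted p was 0.05 or more and the chromosome beside each gene. FN1, ITGAV, ITGA6 and COL3A1 on chromosome 2 and ITGB8 on chromosome 7 shift most, while LAMA1, LAMA2, COL18A1 and ITGA5 stay close to their deposited values.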

How the data were processed

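Total RNA (250 ng per array, per the labels) was labelled with biotin for the arrays. The authors deposited log2 intensities for 33297 transcript clusters. The normalization behind these values was not described in the sources used here. The submitters' processing notes name Partek, and its version was not given in the sources used here. Clusters with exactly 1 symbol in the array annotation (19460) were used, the brightest per gene, which left 18417 genes.

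With limma (version 3.58.1, R 4.3.3), 1 linear model of the 4 groups was fitted, its variances moderated along intensity (4 residual degrees of freedom, 8.55 prior). Tests were two-sided with Benjamini-Hochberg adjustment over all genes, called at an adjusted p under 0.05. Fold changes are differences of log2 values, with the SE of the fit. The procedure was tested on simulated data. The members, gene lists and naming rule were chosen with earlier results of these data known. Named were members past the test with at least 1.5-fold in any comparison, ITGA5, ITGB1, FN1, the collagen IV pairs, integrin-prefixed genes that encode no subunit, up to 4 genes per context list with the largest called change in the mean of the 3 depletions, and the TETs. Other members described with values, ITGAV and ITGA6 among them, lay outside this rule and were chosen after their values were seen.

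Context lists were integrin adhesion adaptors, collagen biosynthesis, other matrix and basement membrane genes, other matrix receptors, and matrix proteases and inhibitors. Marker lists were embryonic carcinoma, primitive and parietal endoderm, fibroblast and mesenchyme, endothelium, leukocyte, neuroectoderm and trophectoderm. In the mean of the 3 depletions, 2 of 4 measured neuroectoderm markers were called lower, NES (-0.19) and NEUROG2, which lay below background on all arrays. Of 5 trophectoderm markers, 2 were called lower, GATA3 (-0.26) and TFAP2A (-0.48). In that comparison 24.2% of all genes were called lower. Alternatives were quantile normalization, a fit without the intensity trend, only the 4 arrays compared, only genes above background, clusters averaged per gene, clusters kept separate, leaving out single arrays, blocking on replicate number, a 1.5-fold threshold, and the median shift of the 24 nearest genes above background subtracted per array, with gene order from RefSeq (GRCh38.p14). Clusters with several symbols (1754) were left out. Plots were made in Python 3.11.15 (matplotlib 3.10.9).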

Additional observations from a re-analysis of the deposited data

Results flagged for a closer look

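The test of the difference between 2 depletions was passed in 19 member results, listed here with no explanation. In siTET2 against siTET1 this was ITGB8 (0.48). In siTET3 against siTET1 the higher members were ITGAV (0.47) and ITGB8 (0.41), and the lower members were LAMA1 (-0.51), LAMA4 (-0.45), LAMA2 (-0.39), LAMC1 (-0.26), LAMB1 (-0.15) and ITGA6 (-0.14). In siTET3 against siTET2 the higher members were ITGAV (0.31), ITGB1 (0.23) and ITGB1BP1 (0.21, and 0.11 without siTET3 replicate 2), and the lower members were ITGB1BP2 (-0.33), LAMA2 (-0.32), LAMA1 (-0.31), LAMA4 (-0.30), FN1 (-0.26), LAMB1 (-0.23) and ITGA6 (-0.18). These values are log2 differences of the group named first minus the other, with 2 arrays per group, and none reached 1.5-fold. The groups of 2 arrays were too small to test for single outlying arrays.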

How the results depend on the processing

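Of 82 called results of 22 members above background, 49 kept their call in every alternative other than the 1.5-fold threshold and 33 lost it in at least 1, and no sign reversed. ITGA5, ITGB8, ITGA2, LAMA1, LAMA2 and COL18A1 against siNTC kept the call in these alternatives, in each depletion and in their mean. At 1.5-fold, ITGA2 was not called in siTET1 or siTET3, nor LAMA1 in siTET3. With a 1.5-fold threshold the members called numbered 6 in siTET1 against siNTC, 6 in siTET2 against siNTC, 5 in siTET3 against siNTC, 7 in the mean of the 3 depletions against siNTC and 0 between any 2 depletions. With the 4 arrays of the comparison alone, 13 were called in siTET3 against siNTC and 5 in siTET2 against siTET1, and the cause was not tested. In those fits the calls of COL5A1 in siTET1 and of COL4A2, COL4A5, ITGA9 and ITGB1BP1 in siTET3 against siNTC were lost. Lost too were ITGA6 and LAMB1 in siTET3 against siTET1, and LAMA4, ITGB1BP1 and ITGB1BP2 in siTET3 against siTET2. In siTET2 against siTET1, 2 were called after quantile normalization, 3 with genes above background only and 4 with the neighbours' shift subtracted, against 1. Without an intensity trend, 3 were called in siTET3 against siTET2, against 10, and the cause was not tested.

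Leaving out 1 array gave 12 to 19 called members in siTET1, 13 to 17 in siTET2, 13 to 18 in siTET3 and 15 to 22 in the mean, each against siNTC. It gave 0 to 3 in siTET2 against siTET1 (0 without siTET1 replicate 1 or siTET2 replicate 2, 3 without either siTET3 array), 4 to 12 in siTET3 against siTET1 (4 without siTET1 replicate 2) and 1 to 10 in siTET3 against siTET2 (2 without siTET2 replicate 1, 1 without siTET2 replicate 2, 5 without siTET3 replicate 1). siTET3 against siNTC had 13 without siNTC replicate 2.

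In the mean of the 3 depletions, 9 members passed only after the neighbours' shift was subtracted, 3 of them above background. In siTET3 against siTET1 the higher and lower calls were 4 and 4 after quantile normalization and 3 and 4 after the subtraction, against 2 and 6.

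Deviations of same-numbered arrays correlated at 0.238 between siTET1 and siTET3, and at -0.043 to 0.028 between the other pairs of groups. With the replicate block, 16 members were called in siTET1, 15 in siTET2, 20 in siTET3 and 20 in the mean against siNTC, and 1, 9 and 10 in the comparisons between depletions. Precision is limited by 2 arrays per group and, for 34 members, by signal at or below background.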

Other observations

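The CG content at the start sites differed between members with and without signal. The 32 members above background on all 8 arrays that had a RefSeq window held a median of 26.5 CG dinucleotides, the 24 members above background on none held a median of 11.5, and the median over all genes was 14. This is a description without a test. The windows of all genes were not split by signal, so the difference cannot be read as particular to the members. Exceptions ran both ways: LAMA2, ITGA2B and LAMA4 were above background with 10, 2 and 8 CGs, and COL15A1, COL25A1 and ITGA4 were not above background with 45, 38 and 31.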
